A study of Caenorhabditis elegans with 2 samples.

Results

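Neuron identity transcription factor genes, the 48 genes described here, mostly encode factors known to help fix what kind of neuron a cell becomes in Caenorhabditis elegans. They include the gene of the corepressor UNC-37, which works with some of these factors. The genes were taken as a named list, chosen with earlier results of these data known. All 48 matched 1 protein-coding gene each in Ensembl release 115, out of 19973 protein-coding genes on the nuclear chromosomes. Binding of UNC-39, a homeodomain protein of the SIX4/5 family, was measured in whole L2 larvae by ChIP-seq, in which DNA bound to the eGFP-tagged factor is pulled down with an antibody and sequenced, in 2 biological replicates. Both replicates were of strain OP186, which carries the unc-119 allele ed3 on chromosome III and the insertion wgIs186 bearing the tagged unc-39, and larvae of both sexes were pooled. The 2 replicates form the only group: there was no strain without the tag, no other stage and no other treatment to compare them with, and the tagged protein came from 1 inserted line. Whole larvae were used, so binding in a few cells and weaker binding in many cells cannot be told apart, and the cells in which a site was bound are not known.

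Each neuron class of the worm is known to be specified by a small set of terminal selectors, transcription factors that switch on the effector genes of that neuron (transmitter enzymes, receptors, channels) and keep their own genes on. Homeodomain proteins are the largest family among them, and 25 of the 48 genes were placed in a homeodomain class here. That count goes by class, so it leaves out any gene placed in another class whose product also has a homeodomain. The genes often carry several separate enhancers, upstream and within introns, that act in different neurons.

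The authors deposited a pooled list of 30000 peaks and background regions, a list for each replicate (30000 for replicate 1 and 24978 for replicate 2), and 140 peaks that passed their threshold of reproducibility between replicates. A peak's signal is the authors' enrichment value. It has a scale of its own in each list, so replicates are set side by side here by rank, with rank 1 for the highest signal of a list. The lists hold no read counts, and the depth behind each signal is unknown. A summit, the single base at the centre of a peak, was given to a gene when it fell inside that gene, or no more than 2000 bp from where one of its annotated transcripts starts (a 5' end), and this stretch is called the gene's window. Positions are on ce11, which is the assembly WBcel235.

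None of the 48 windows held a thresholded summit, which allows a share of up to 6.25%, while 0.831% of all protein-coding genes held one. In the next tier, the 1500 highest peaks of the pooled list (5% of it), 8 of the 48 windows held a summit (16.7%), against 7.64% of all protein-coding genes. These 8 were ets-5, unc-42, die-1, lim-7, ceh-14, ceh-43, zag-1 and ttx-3. Any pooled summit at all was found for 46 of the 48, against 78.7% of all genes. The members' windows are longer than most, and among genes with windows between the members' quartiles of length the count was 22 of 24 members against 86.4%. No test of these shares was made, because the 48 genes were chosen with earlier results of these data known. The counts are given as a description of the peak lists.

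**Figure D1:**
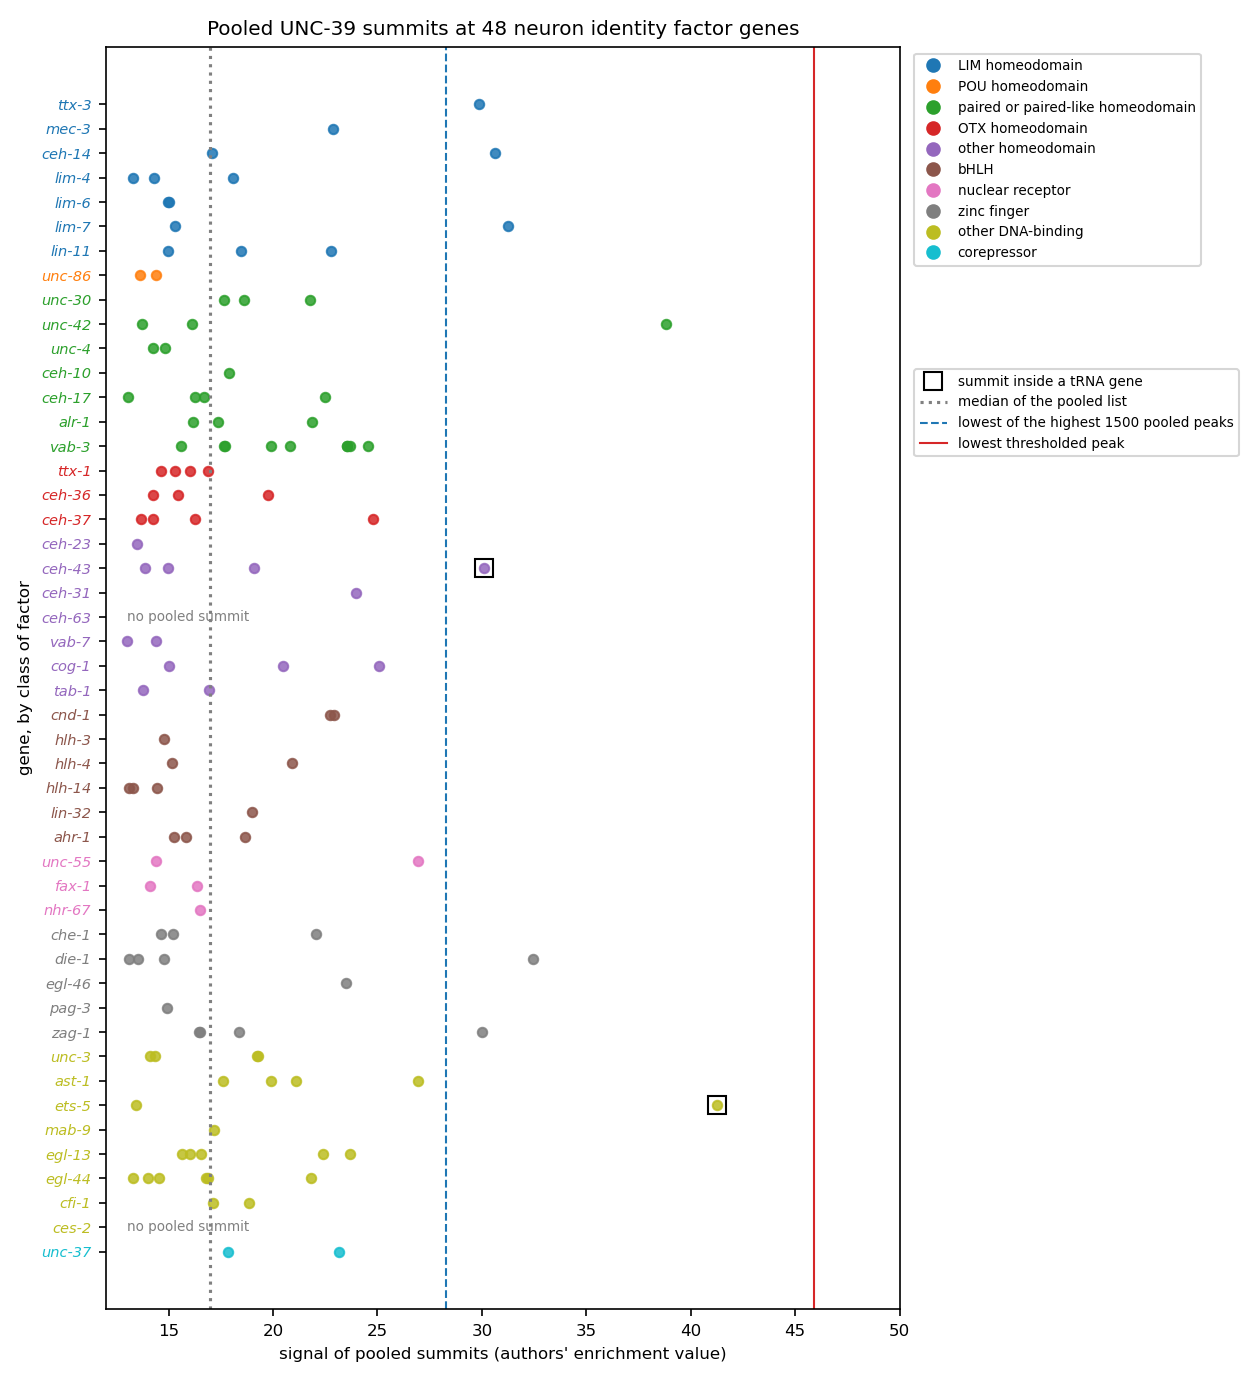
Signal of every pooled summit (horizontal axis, the authors' enrichment value, no unit) in the window of each of the 48 genes (vertical axis, ordered and coloured by class of factor), 1 point per summit. The highest point, at ets-5, reaches 41.3 and lies left of the lowest thresholded peak at 45.9, and 8 genes have a point right of the line at 28.3 that bounds the highest 1500 peaks.

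The 48 windows held 121 pooled summits, no summit being shared between genes. Their signals ran from 13.03 to 41.3 with a median of 16.8, beside a median of 16.99 over the whole pooled list, and 57 of the 121 lay above that list median. So the typical member summit had the signal of the typical region in a list that includes background. The highest member signal stood at rank 216, with 75 pooled peaks between it and the lowest of the thresholded peaks. The median of the highest signal per gene was 21.9 over the 46 members with a summit and 19.4 over all genes with one.

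Sequence is shown for the 201 bp centred on the highest summit of 6 members, the leading ones other than lim-7, because these are the member sites of highest signal. All are the plus strand of ce11, from the RefSeq genome of the same assembly, with capitals for letters that match a pattern searched on both strands. TGATAC was searched as a core of sites of the sine oculis homeobox family, to which UNC-39 belongs, and so was the related form TGACAC. The core of many homeodomain sites is TAATTA. Among patterns of other factors, CAGCTG is an E-box bound by bHLH proteins, while the other E-box searched was CACGTG, and the site of GATA factors was searched as TGATAA. The repeat GAGAGAGA was searched as well. GGTTCGA is the core of the B box, the promoter element that lies inside tRNA genes. No pattern contains another.
The ets-5 window, chrX:5085553-5085753, holds the B box core on the minus strand.
ets-5: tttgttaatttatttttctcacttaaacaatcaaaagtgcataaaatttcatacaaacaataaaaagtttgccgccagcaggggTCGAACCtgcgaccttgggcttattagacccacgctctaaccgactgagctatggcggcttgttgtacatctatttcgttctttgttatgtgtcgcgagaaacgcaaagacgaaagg
The unc-42 window, chrV:9768299-9768499, lies in an intron and matched none of the patterns.
unc-42: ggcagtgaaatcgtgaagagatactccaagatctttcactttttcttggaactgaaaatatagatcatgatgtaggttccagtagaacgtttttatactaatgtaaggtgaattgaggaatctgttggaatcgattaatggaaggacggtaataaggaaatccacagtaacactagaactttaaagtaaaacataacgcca
The die-1 window, chrII:10063101-10063301, is centred on a coding exon and matched none of the patterns.
die-1: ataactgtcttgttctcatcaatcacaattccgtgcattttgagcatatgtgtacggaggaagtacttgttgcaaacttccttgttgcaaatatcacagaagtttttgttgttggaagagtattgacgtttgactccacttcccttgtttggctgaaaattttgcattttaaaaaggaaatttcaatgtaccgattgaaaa
The ceh-14 window, chrX:7531944-7532144, lies in an intron and holds 1 TGATAA.
ceh-14: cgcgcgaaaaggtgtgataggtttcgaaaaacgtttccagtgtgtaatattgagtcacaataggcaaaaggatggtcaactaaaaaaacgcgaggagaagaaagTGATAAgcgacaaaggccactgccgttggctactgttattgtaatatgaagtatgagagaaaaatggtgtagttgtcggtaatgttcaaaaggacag
The ceh-43 window, chrIII:4449469-4449669, holds on the minus strand the B box core, 1 TGATAA and 1 TGACAC.
ceh-43: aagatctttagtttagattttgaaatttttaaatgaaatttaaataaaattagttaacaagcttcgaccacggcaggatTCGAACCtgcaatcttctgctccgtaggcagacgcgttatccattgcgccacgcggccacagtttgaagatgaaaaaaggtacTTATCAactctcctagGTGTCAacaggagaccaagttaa
The zag-1 window, chrIV:3854598-3854798, lies upstream of the gene and holds the B box core.
zag-1: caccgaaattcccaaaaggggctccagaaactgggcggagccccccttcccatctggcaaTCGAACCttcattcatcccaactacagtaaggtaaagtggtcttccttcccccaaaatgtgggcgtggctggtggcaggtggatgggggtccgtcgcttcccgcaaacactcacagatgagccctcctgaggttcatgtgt

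Among the genes of the LIM homeodomain class, 3 of 7 had a summit in the highest 1500 pooled peaks. For ttx-3, whose product specifies the AIY interneuron, the window held 1 pooled summit, with a signal of 29.9 at rank 1109. It lay in an intron, 1677 bp downstream of the nearest 5' end of the gene (chrX:11764456-11769378, minus strand). Each replicate had a single summit in the window, 4 bp away in replicate 1 (signal 14.9, rank 3620) and 12 bp away in replicate 2 (signal 12.6, rank 4384). The ttx-3 window therefore had the same single position in all 3 lists, in neither replicate among its highest 1500.

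For ceh-14, which encodes a LIM factor of the thermosensory neuron AFD and other neurons (chrX:7527769-7532732, minus strand), the higher of 2 pooled summits had a signal of 30.6 at rank 953. It lay in an intron, 688 bp downstream of the 5' end. Both replicates had a summit 11 bp from it, at rank 4090 in replicate 1 and rank 1030 in replicate 2, so it was among the highest 1500 in replicate 2 alone. The other summit, 1553 bp downstream of the 5' end, had a signal of 17.1 at rank 14773 and no replicate summit within 100 bp.

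For lim-7, which encodes an Islet-type LIM factor (chrI:5716574-5725809, plus strand), the higher of 2 pooled summits had a signal of 31.3 at rank 850 and lay far inside the gene, in an intron 5980 bp downstream of its 5' end. Replicate 1 ranked it 479, replicate 2 ranked it 9139. The other summit, 143 bp downstream of the 5' end in a coding exon, had a signal of 15.3 at rank 20276. The remaining LIM genes stayed below the highest 1500. The gene mec-3, needed for touch receptor neurons, had 1 summit of signal 22.9 in a coding exon. The highest signal was 22.8 for lin-11, 18.1 for lim-4, needed for the olfactory neuron AWB, and 15.01 for lim-6. At lim-6, replicate 1 alone ranked an untranslated-exon summit at 2690, whereas the pooled signal there stood at rank 21415.

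In the paired and paired-like class, 1 of 7 genes had a summit in the highest 1500. That gene was unc-42 (chrV:9764534-9769391, minus strand), which specifies command interneurons and other neurons. Its highest summit had a signal of 38.8 at rank 280, exceeded among the 48 genes by ets-5 alone, in an intron and 647 bp upstream of the nearest of the gene's 5' ends. Replicate 1 had a summit 10 bp away at rank 192 (signal 23.5) and replicate 2 had one 21 bp away at rank 2177 (signal 14.6). Of the other 2 summits of unc-42, the one with a signal of 16.1 (rank 17595) was matched in replicate 1 alone, and the one with a signal of 13.7 (rank 26620) in replicate 2 alone.

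The Pax6 gene vab-3, a long gene (chrX:10499890-10519580, plus strand), had 9 pooled summits, more than any other member, with signals from 15.6 to 24.5. Its highest summit, 102 bp upstream of a 5' end, stood at rank 3281 in the pooled list and at rank 494 in replicate 1. All 9 had a replicate 1 summit within 100 bp, and none had a replicate 2 summit within that distance. Replicate 2 had 4 summits in the vab-3 window, of which the closest to pooled summits lay 115 and 159 bp away. Among the others of the class, the highest signal was 22.5 for ceh-17, 21.9 for alr-1, the aristaless gene, 21.8 for unc-30, which specifies GABAergic motor neurons, 17.9 for ceh-10 and 14.8 for unc-4. The highest ceh-17 summit lay closer to the 5' end of idpp-10 than to one of ceh-17.

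None of the 3 OTX genes had a summit in the highest 1500. For ceh-37 (chrX:14197372-14208000, minus strand), which acts in the olfactory neuron AWB, the highest of 4 summits had a signal of 24.8 at rank 3122, in a coding exon. Replicate 1 ranked it 2042, and replicate 2 ranked it 20436. Its other summits had signals of 16.2, 14.3 and 13.7, the last 2 upstream of the gene and without a partner in either replicate. The highest signal was 19.8 for ceh-36, which acts in the chemosensory neurons ASE and AWC, and 16.9 for ttx-1, which specifies AFD. For ceh-36, replicate 1 had a coding-exon summit at rank 911, and replicate 2 had no summit in the window.

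Of the 7 other homeodomain genes and the POU gene, ceh-43 alone reached the highest 1500. This Distal-less gene (chrIII:4446638-4449943, minus strand) is a selector of dopaminergic neurons. Its highest summit had a signal of 30.1 at rank 1057, with replicate ranks of 2229 and 5559. That summit lay in an intron 374 bp downstream of the 5' end, inside a tRNA gene described further on. The other 3 summits of ceh-43 had signals of 19.1, 14.9 and 13.9, and none had a partner in replicate 2. The first of these 3 lay 1453 bp upstream of the gene. For cog-1, the Nkx6 gene that acts in the right ASE neuron (chrII:14902493-14907533, plus strand), the highest of 3 summits had a signal of 25.05 at rank 2930 in a coding exon. All 3 cog-1 summits had a partner in replicate 2, at ranks 2100, 4994 and 13919, and replicate 1 had no summit in the window. The highest signal was 23.995 for ceh-31, a BarH gene, 16.9 for tab-1, 14.4 for vab-7, the even-skipped gene of DB motor neurons, 14.4 for unc-86, the POU gene of touch receptor and serotonergic neurons, and 13.5 for ceh-23. No pooled summit lay in the window of ceh-63, where replicate 2 had 1 summit at rank 9523 and replicate 1 had none.

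None of the 6 bHLH genes had a summit in the highest 1500, and the highest signal in the class was 22.9, at cnd-1, the NeuroD gene. It was 20.9 for hlh-4, 18.97 for lin-32, the atonal gene, 18.6 for ahr-1, 14.8 for hlh-3 and 14.5 for hlh-14. The hlh-4 summit lay nearer a 5' end of dao-6. None of the 3 nuclear receptor genes reached the tier either. The nearest was unc-55 (chrI:7898434-7903334, minus strand), the COUP-type receptor of VD motor neurons, with an intronic summit of signal 26.96 at rank 1958. Both replicates had that summit, at ranks 5526 and 11412, and the nearest 5' end was that of another gene, F55D12.6. The second unc-55 summit had a signal of 14.4 and no partner in either replicate. The highest signal was 16.5 for nhr-67 and 16.3 for fax-1, both under the median of the pooled list.

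Of the 5 zinc finger genes, 2 had a summit in the highest 1500. The highest summit of die-1 (chrII:10061302-10067917, minus strand), which acts in the left ASE neuron, had a signal of 32.5 at rank 680 in a coding exon, 1280 bp downstream of the nearest 5' end. It stood at rank 797 in replicate 1 and rank 1698 in replicate 2, both positions within 47 bp of the pooled summit. By the lower of its replicate ranks, die-1 came nearest of all members to the highest 1500 of both replicates. The other 3 die-1 summits had signals of 14.8, 13.5 and 13.1, and none had a partner in replicate 1.

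For zag-1 (chrIV:3855843-3861569, plus strand), the ZEB-type factor of several neuron classes, the highest summit had a signal of 29.98 at rank 1087 and lay 1145 bp upstream of the 5' end. Replicate 2 had a summit 7 bp away at rank 4463. The replicate 1 summit nearest to it, 54 bp away, was at rank 28969, and a higher one at rank 3455 lay 154 bp away. The other 3 zag-1 summits had signals of 18.4, 16.5 and 16.5, each with a partner in 1 replicate. The highest signal was 23.5 for egl-46, 22.0 for che-1, the selector of the ASE neurons, and 14.9 for pag-3.

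Among the 8 genes of other DNA-binding classes, ets-5 alone reached the highest 1500. This ETS factor acts in the CO2-sensing neuron BAG, and its gene (chrX:5076635-5084526, minus strand) had the highest signal of all 48, 41.3 at rank 216. The summit lay 1127 bp upstream of the nearest 5' end of ets-5, inside a tRNA gene described further on. In replicate 2 a summit 46 bp away stood at rank 164 (signal 26.0). In replicate 1 the summit within 100 bp stood at rank 29465 of 30000 (signal 7.91), and another, 121 bp away, at rank 3863 (signal 14.7). The strongest member site was therefore near the top of the list in 1 replicate and not in the other. The second ets-5 summit, in an intron and nearer the 5' end of cal-5, had a signal of 13.4 and no partner in either replicate.

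For ast-1 (chrII:4127837-4135359, minus strand), the ETS selector of dopaminergic neurons, the highest of 4 summits had a signal of 26.96 at rank 1957, in an intron, with replicate ranks of 8254 and 5379. Its other summits had signals of 21.1, 19.9 and 17.6. The last of these lay in a coding exon at pooled rank 13403, and in replicate 1 its partner stood at rank 554, the highest in that window. The highest signal was 23.7 for egl-13, the SoxD gene, 21.8 for egl-44, the TEAD gene, 19.3 for unc-3, the selector of cholinergic motor neurons, 18.8 for cfi-1 and 17.2 for mab-9, a T-box gene. After vab-3, the most summits were found at egl-44, with 6, and egl-13, with 5, and other members had 4 or fewer. All 5 egl-13 summits were intronic and all had a replicate 1 partner, and 2 of them also had one in replicate 2. No pooled summit lay in the window of ces-2, a bZIP gene, where the replicates had 1 summit each at different places. The corepressor gene unc-37, the worm Groucho, had 2 summits, of signals 23.2 and 17.8.

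In 12 of the 46 genes with a summit, no summit lay above the median signal of the pooled list. The same count was not made over all protein-coding genes, so 12 of 46 cannot be called high or low. These were tab-1, ttx-1, nhr-67, fax-1, lim-6, pag-3, unc-4, hlh-3, hlh-14, vab-7, unc-86 and ceh-23, with highest signals from 13.5 to 16.9. They included the selectors unc-86 of touch receptor neurons and ttx-1 of AFD. Between them and the highest 12 genes lay 22 genes. The lowest of the highest 12, ceh-37, had a signal of 24.8, and the next gene, vab-3, had 24.5, so no gap separated them.

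**Figure D2:**
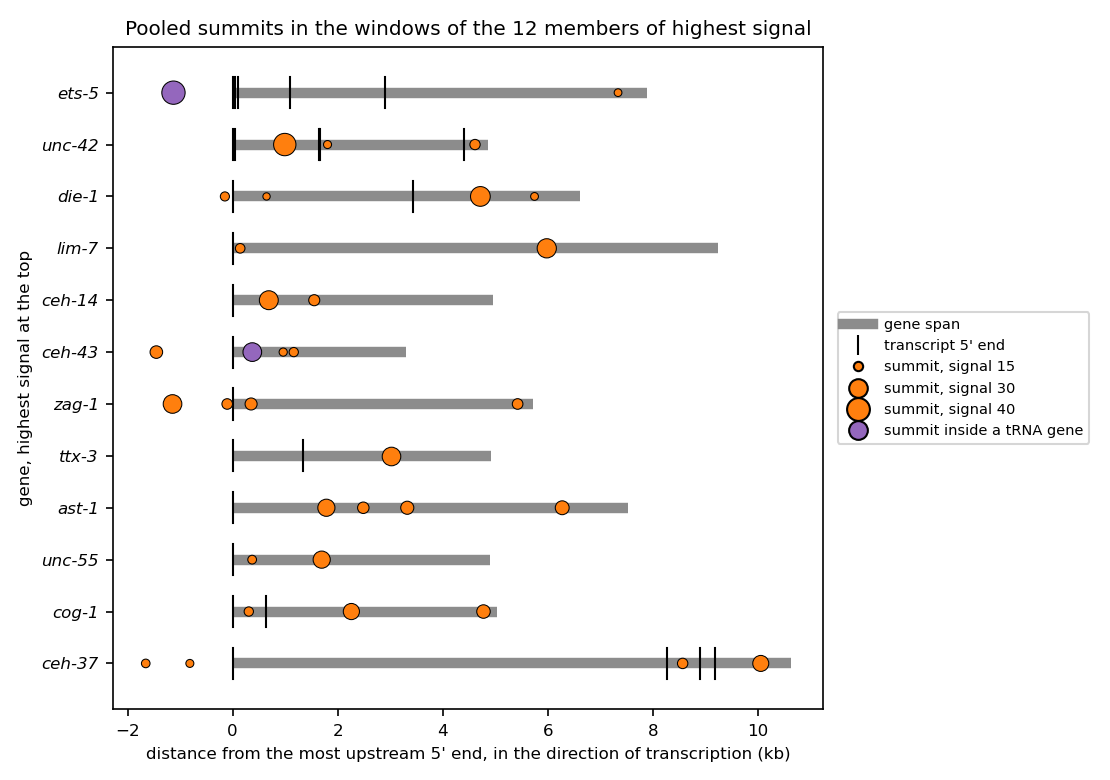
Pooled summits (circles, area growing with signal) in the windows of the 12 members of highest signal, by distance in kb from the most upstream 5' end along the direction of transcription. Grey bars are gene spans and black ticks transcript 5' ends. The highest summits of ets-5 and zag-1 lie left of the gene, and the highest summits of the other 10 genes lie inside it.

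Of the 121 summits, 52.1% were in introns, 15.7% in coding exons, 5.79% in untranslated exons and 26.4% outside the gene, and the highest summits of the 12 leading genes were intronic in 7 cases, coding in 3 and outside in 2. Over all protein-coding genes, 26.2% of summits in windows were intronic, 27.7% in coding exons, 4.28% in untranslated exons and 41.8% outside. Introns make up 48.9% of the member windows and 30.4% of all windows, and per kb of intron there were 0.364 summits at members and 0.270 at all genes. Per kb of coding exon the order was the other way, with 0.382 at members and 0.400 at all genes. Per kb of window outside the gene itself the values were 0.304 and 0.301, and that part can hold neighbouring genes. In relation to the nearest 5' end of the same gene, 40 summits lay upstream and 81 downstream, and 30 lay more than 2000 bp away. For 14 of the 121, a 5' end of another protein-coding gene was nearer than one of the member. A window takes in the whole gene but only 2000 bp upstream of it, so it has more room downstream. Any summit more than 2000 bp from a 5' end of its gene lies inside the gene by that rule. These counts of position were not made over all genes, so they cannot be called particular to the members.

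The members have long windows, with a median of 6522 bp against 4182 bp for all genes, and a longer window has more room for a summit. Per kb, the member windows held 0.342 pooled summits and all windows 0.313. Summits of the highest 1500 numbered 22.6 per Mb in member windows and 15.3 per Mb in all windows. Among genes whose windows fell between the quartiles of the members (5047 to 8712 bp), 6 of 24 members and 9.55% of 4585 genes had a summit in the highest 1500. The 8 genes with such a summit all had windows of 5 to 12 kb: the tier was reached by 1 of 11 members at 5 to 6 kb (7.95% of all genes), 3 of 11 at 6 to 8 kb (10.2%) and 4 of 9 at 8 to 12 kb (14.7%). None of the 7 members with windows up to 4.1 kb (5.27% of all genes) and none of the 4 at 4.1 to 5 kb (5.11%) reached it. None of the 6 members above 12 kb reached it, among them vab-3 and egl-44, where 22.8% of all genes did. On X the count was 3 of 16 members beside 10.5% of all X genes, and on the autosomes 5 of 32 beside 7.19%.

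**Figure D3:**
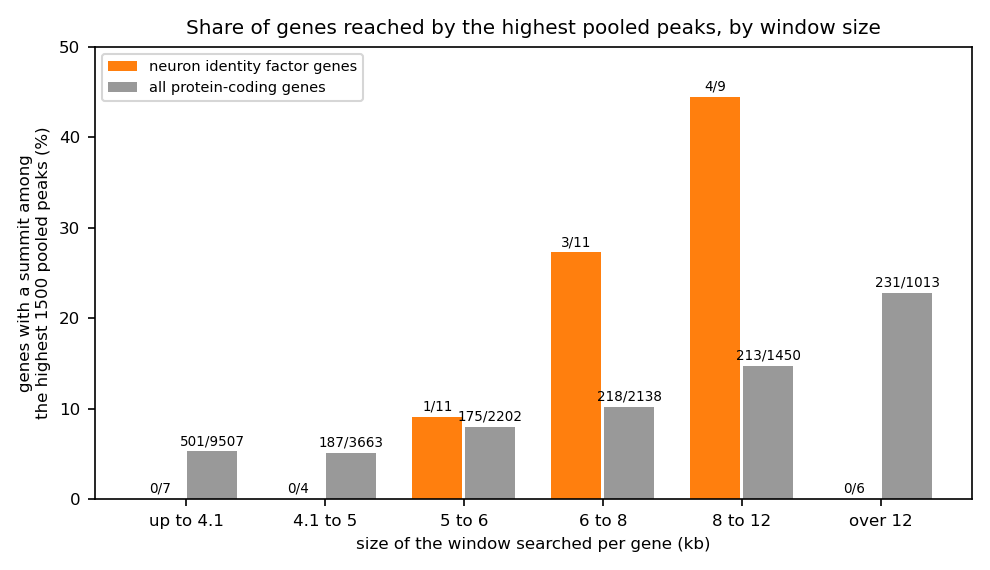
Percent of genes with a summit among the highest 1500 pooled peaks (vertical axis) by size of the gene's window in kb (horizontal axis), for the 48 genes (orange) and all protein-coding genes (grey), with counts above the bars. The share of all genes is 5.27% in windows up to 4.1 kb, 5.11% at 4.1 to 5 kb and 22.8% above 12 kb. The members are 0 of 7 up to 4.1 kb and 0 of 4 at 4.1 to 5 kb. At 5 to 6 kb they are 1 of 11, where the share of all genes is 7.95%. They are 3 of 11 and 4 of 9 in the next bins, and 0 of 6 above 12 kb.

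The replicates did not rank the member windows alike. In replicate 1's own list, 6 of 48 members had a summit among its highest 1500 (unc-42, lim-7, vab-3, ast-1, die-1 and ceh-36), against 8.02% of all genes. In replicate 2's own list it was 2 of 48 (ets-5 and ceh-14), against 8.07% of all genes. No member was in the highest 1500 of each replicate, while 2.31% of all genes were. Replicate 1 also had more summits in the member windows, 146 or 0.413 per kb against 0.312 over all genes, and replicate 2 had 94, or 0.266 per kb against 0.263. The larger count of members in the pooled tier was thus not found in both replicates taken singly.

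Summit by summit, 24 of the 121 pooled member summits had a partner within 100 bp in both replicates (19.8%), beside 19.05% of all pooled summits. A further 39.7% had a partner in replicate 1 alone, 23.1% in replicate 2 alone and 17.4% in neither, and over all pooled summits these shares were 36.4%, 27.2% and 17.4%. The pooled signal itself draws on the reads of both replicates. The highest summits were matched more often: all 8 member summits in the highest 1500 were matched in both, as were 75% of all 1500. A match can be weak: the replicate 1 partners at ets-5 and zag-1 stood at ranks 29465 and 28969 of 30000. Of the 12 leading members, 11 had their highest summit matched in both replicates, and the exception was cog-1. The share matched was not counted over all pooled peaks of such ranks, so 11 of 12 cannot be called high or low.

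**Figure D4:**
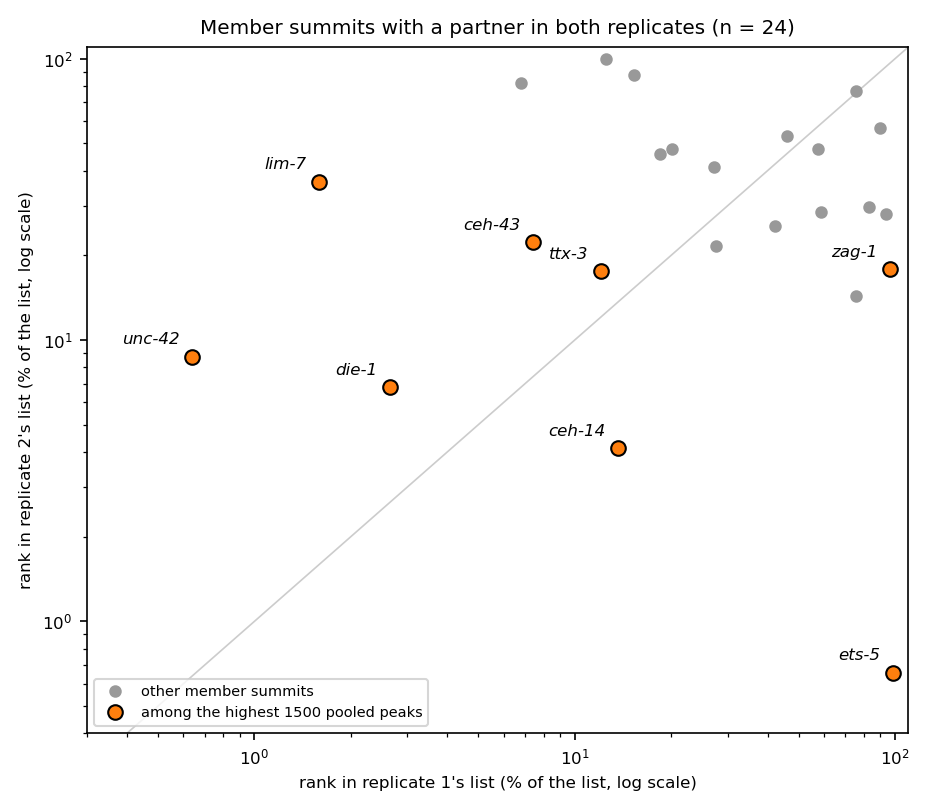
Rank of the 24 member summits with a partner in both replicates, as a percent of replicate 1's list (horizontal, log scale) and of replicate 2's list (vertical, log scale). Orange points are the 8 summits among the highest 1500 pooled peaks. Points near the lower left would be high in both lists, and the nearest to it are unc-42 and die-1, while ets-5 and zag-1 lie at the far right.

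The leading member summit lay inside a tRNA gene. The ets-5 summit fell within the tRNA-Ile gene C42D8.t1 (chrX:5085622-5085695, minus strand), which is 74 bp long and outside ets-5. The highest ceh-43 summit fell within the tRNA-Arg gene C28A5.t2 (chrIII:4449533-4449605, minus strand), which is 73 bp long and inside ceh-43. The B box cores in capitals in the ets-5 and ceh-43 sequences are those of these tRNA genes, and the core in the zag-1 sequence had no annotated tRNA gene with it. The 48 windows held 3 annotated tRNA genes in all, and at the third, C28A5.t1, the nearest member summit was 755 bp away. Summits within 200 bp of a tRNA gene made up 2 of 121 at members (1.65%), 0.67% of the pooled list, 2.73% of its highest 1500 and 2.86% of the thresholded peaks. Without summits near tRNA genes, 6 of 48 members (12.5%) and 7.48% of all genes had a summit in the highest 1500, the highest signal of ets-5 was 13.4 and that of ceh-43 was 19.1. Whether these summits concern ets-5 and ceh-43 or the tRNA genes was not tested. These counts were made after the sequences had been seen.

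The patterns searched were counted around member summits and around all pooled summits. The sine oculis core TGATAC occurred within 100 bp of 4.96% of the 121 member summits and 6.74% of all pooled summits, and TGACAC of 12.4% and 8.23%. Within 50 bp the order for TGACAC turned, with 3.31% of member summits and 4.14% of all. The homeodomain core TAATTA occurred at 7.44% and 7.16%. TGATAA occurred at 22.3% and 16.4%, CAGCTG at 4.96% and 4.91%, CACGTG at 3.31% and 4.25%, and GAGAGAGA at 0.826% and 2.47%. GGTTCGA occurred at 3 of the 121, those of ets-5, ceh-43 and zag-1, and at 1.76% of all. Both strands were searched and a summit was counted once per pattern. The median GC content of the 201 bp was 37.8% at member summits and 38.3% at all. Among the 12 leading summits, TGACAC was found at ceh-43, TGATAA at ceh-14 and ceh-43, and TGATAC at none. In the highest 1500 pooled summits the shares were 8.33% for TGACAC, 11.1% for TGATAA and 5.13% for TGATAC. With shares that low, 12 summits are too few to show that a pattern is lacking.

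Of 40 neuron effector genes (transmitter enzymes and transporters, receptors, channels and guanylate cyclases), none had a thresholded summit. That allows a share of up to 7.5%, beside 0.831% of all genes. In the highest 1500, 3 of the 40 had a summit (7.5%), close to the 7.64% of all genes. These were the touch channel gene mec-4, with a signal of 45.1 at rank 152, the glutamate receptor gene glr-2 with 32.04, and the serotonin transporter gene mod-5 with 29.3. Of 37 other neural transcription factor genes, none had a thresholded summit, which allows up to 8.11%. In the highest 1500, 3 of the 37 had one (8.11%), again close to the share of all genes. These were sox-2 with a signal of 43.9 at rank 166, egl-18 with 29.9 and ceh-8 with 29.8. Any pooled summit was found for 38 of the 40 effector genes (95%) and 30 of the 37 factor genes (81.1%), and summits numbered 0.385 and 0.334 per kb of window, beside 0.342 at the 48 members and 0.313 over all genes. The signals of mec-4 and sox-2 were above that of every one of the 48 members.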

How the data were processed

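The authors carried out ChIP-seq on L2 larvae of 1 strain in 2 biological replicates. The deposited peak lists on ce11 give each peak's signal, the authors' enrichment value. Per the file listings, each list was derived from 1 or both replicates' alignments and 1 further file, and the thresholded list from the others by the irreproducible discovery rate. The sources used here name no peak caller. The ce10 lists were not used.

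Genes came from Ensembl release 115 (WBcel235). Summits were assigned within genes or 2000 bp of a 5' end, and matched between lists within 100 bp. Depth is unknown, and no test between conditions was possible with 1 group. Where a count is 0, the limit given is 3 counts over the total, and covers counting error only. The members and lists were chosen with earlier results of these data known, so their shares were not tested against all genes. By rule, the 12 members of highest signal are described in full, with members lacking a summit, those below the pooled median, those with most summits, and sequence for 6. Other members are given by their highest signal. The peak assignment was tested on simulated data. Python 3.11.15, pandas 2.3.3 and numpy 2.4.6 were used. Distances, windows, list tiers, match rules and single replicates were varied.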

Additional observations from a re-analysis of the deposited data

How the results depend on the processing

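No paired analysis was possible because the 2 replicates form 1 group. Leaving out a replicate means using the other's own list: the number of members in the highest 1500 then ranged from 2 (replicate 2's list) to 6 (replicate 1's list), and the median highest signal, on each list's own scale, from 10.6 to 13.6. In the highest 300 pooled peaks there were 2 members (4.17%, and 1.66% of all genes), and in the highest 3000 there were 11 (22.9%, and 15.1%). Searching 50 bp around summits, TGATAC was found at 3 member summits in place of 6 (3.34% of all pooled summits), TGACAC at 4 in place of 15 (4.14%), CAGCTG at 3 in place of 6 (2.57%), CACGTG at 1 in place of 4 (2.04%) and TGATAA at 15 in place of 27 (8.65%). Among summits within 2000 bp of a 5' end, CAGCTG was at 3 and CACGTG at 2. Moves of just 1.5 times were those of TAATTA, from 9 to 6 in either search, and of summits matched in both replicates, from 24 to 16 within 50 bp, where the share of all pooled summits was 12.35%. The other alternatives of the main counts moved by less than that, and the thresholded count was 0 in all of those run for it. With windows of 1000 or 500 bp, or of the gene body alone, the highest signal of ets-5 was 13.4 and that of zag-1 18.4. Near 5' ends alone, that of lim-7 was 15.3. Depth is unknown, so a member without a high peak is one in which none was detected here.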
